A study of Homo sapiens with 14 samples.

Results

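Small nucleolar RNA (snoRNA) host genes are long non-coding RNA genes that carry snoRNAs in their introns. They were taken as the genes with a symbol of SNHG and a number, together with GAS5, ZFAS1, EPB41L4A-AS1 and CYTOR, with a mean of at least 10 counts in the DMSO libraries. Of 28 genes with such a symbol, 21 met this level, among 27819 genes shared by the deposited tables. The libraries came from CWR22RV1 cells, a prostate cancer cell line, treated for 72 h with DMSO (3 libraries), 30 µM Fucotrim I (3 libraries), 60 µM Fucotrim II (2 libraries analysed here), 100 µM SGN-2FF (3 libraries) or 2 µM P-SiaFNEtoc (3 libraries). The Fucotrims and SGN-2FF are metabolic inhibitors of fucosylation, P-SiaFNEtoc is a metabolic inhibitor of sialylation, and all 4 were compared with the same 3 DMSO libraries. Each treatment was given at a single dose and time in a single cell line. The libraries held between 12553094 counts (Fucotrim I replicate 3) and 19981453 counts (P-SiaFNEtoc replicate 1), and the host genes took between 0.124% and 0.131% of the counts in DMSO. This share was 0.141% to 0.151% with Fucotrim I, 0.186% and 0.201% with Fucotrim II, 0.135% to 0.140% with SGN-2FF and 0.125% to 0.132% with P-SiaFNEtoc. In bulk libraries such as these a change in the number of cells of one kind and a change in RNA per cell cannot be told apart.

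A host gene is transcribed and spliced like an mRNA gene, its excised introns are trimmed to snoRNAs, and its joined exons are left as a spliced RNA. C/D box snoRNAs guide ribose methylation and H/ACA box snoRNAs guide pseudouridylation, mostly on ribosomal RNA, while small Cajal body RNAs (scaRNAs) guide the same modifications on spliceosomal RNAs. Many host transcripts begin with the terminal oligopyrimidine (TOP) tract that is typical of ribosomal protein mRNAs, and several are known to be degraded by nonsense-mediated decay (NMD) once ribosomes engage them. GAS5 was named for its accumulation in growth-arrested cells.

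The 21 host genes were, in descending order of DMSO counts, SNHG29, GAS5, SNHG5, SNHG8, SNHG1, SNHG16, SNHG7, ZFAS1, SNHG6, SNHG15, SNHG3, SNHG17, EPB41L4A-AS1, SNHG12, SNHG10, SNHG20, SNHG11, SNHG19, SNHG9, SNHG4 and SNHG21. The mean DMSO count fell from 8457.33 for SNHG29 to 28.33 for SNHG21, the last gene inside the limit. SNHG28 was the first outside it with a mean of 7.67 counts. CYTOR had 3, 2 and 2 counts in DMSO, 0, 1 and 0 with Fucotrim I, 4 and 3 with Fucotrim II, 0, 2 and 3 with SGN-2FF and 0, 2 and 2 with P-SiaFNEtoc. SNHG31 had 0 to 6, SNHG22 had 0 to 3, SNHG32 had 0 or 1, and SNHG18 and SNHG27 were at 0 in all 14 libraries. These 7 genes were not compared further. The label held for all 21 retained genes, since each had at least 1 RefSeq snoRNA inside an intron of 1 or more of its GENCODE transcripts. The 21 genes carried 57 snoRNAs, of which 32 were C/D box, 20 H/ACA box and 3 scaRNAs, while 2 had no family name. GAS5 carried 11, SNHG1 9, SNHG17 5 and SNHG12 4, and 9 of the 21 genes carried a single one. The cell line label also held: FOXA1, a pioneer transcription factor of prostate epithelium, ranged from 388.6 to 479.2 CPM (counts scaled to 1000000 per library) and KRT8, a luminal keratin, from 455.8 to 826.8 CPM. The 9 markers of other cell types summed to 22.6 to 23.6 CPM in DMSO, 23.1 to 30.6 CPM with Fucotrim I, 30.3 and 36.3 CPM with Fucotrim II, 22.9 to 26.3 CPM with SGN-2FF and 24.6 to 27.2 CPM with P-SiaFNEtoc. The collagen gene COL1A1 made up most of this at 15.9 to 29.2 CPM and rose by 0.59 ± 0.11 (log2) with Fucotrim II. The macrophage gene CD68 reached 8.03 CPM and rose by 0.46 ± 0.14 with SGN-2FF, and the other 7 at most 0.932 CPM, among them the leukocyte gene PTPRC at 0.189 CPM or less, with CD3E at 0 in all 14 libraries and the endothelial genes PECAM1 and CDH5 at 0 in 12. Of 10 prostate epithelial markers, 7 rose with Fucotrim I, 7 with Fucotrim II, 8 with SGN-2FF and 7 with P-SiaFNEtoc and none fell (70%, 70%, 80% and 70%, where 21.6%, 25.6%, 11.5% and 9.02% of all genes tested rose), with KLK3 and KLK2 in front with SGN-2FF (1.32 ± 0.06 and 1.27 ± 0.05). The part of these markers in the host gene results was not tested.

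The following snoRNAs are shown because SNORD44, SNORD25 and SNORA24 are set beside their hosts in the results and SNORD60 is the one carried by the host gene with the largest rise. The coordinates are hg38 positions of the RefSeq entries and the sequences were read from hg38. SNORD44 lies in GAS5 at chr1:173865968-173866028 on the minus strand, SNORD25 lies in SNHG1 at chr11:62855565-62855631 on the minus strand and SNORD60 lies in SNHG19 at chr16:2155023-2155105 on the minus strand. SNORA24 lies in SNHG8 at chr4:118279190-118279320 on the plus strand. Capitals mark the C box TGATGA and the D box CTGA in the C/D box snoRNAs, and the H box ANANNA and the ACA that lies 3 bases from the end in the H/ACA box snoRNA.
SNORD44: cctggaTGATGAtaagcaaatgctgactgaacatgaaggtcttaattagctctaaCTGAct
SNORD25: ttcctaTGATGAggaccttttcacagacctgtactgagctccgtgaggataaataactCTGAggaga
SNORD60: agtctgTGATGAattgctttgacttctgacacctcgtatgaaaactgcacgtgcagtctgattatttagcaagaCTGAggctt
SNORA24: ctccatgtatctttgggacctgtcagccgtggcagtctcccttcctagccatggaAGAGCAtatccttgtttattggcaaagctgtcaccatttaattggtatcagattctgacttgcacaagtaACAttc

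The start regions were also compared, as the members were not chosen on them. RefSeq promoter sequences (GRCh38.p14) were matched for 18 of the 21 genes, and SNHG6, SNHG15 and SNHG9 were not matched. In 6 of the 18 the letters TATAA began between 16 and 40 bases before the start of the RefSeq promoter entry on the transcribed strand, at 28 to 34 bases in each case, whereas 4.34% of 27305 promoters held these letters in that window. A pyrimidine run, defined as C followed by at least 4 more C or T, began within 5 bases of the start in 9 of the 18 genes, against 21.1% of all promoters and 81% of the 63 ribosomal protein genes matched. All 6 genes with TATAA also had such a run, a combination found in 0.919% of all promoters. Of these 6, the start of the entry lay downstream of the start of the RefSeq gene for ZFAS1 and SNHG12, and downstream of the start of the GENCODE gene for both and for SNHG5, SNHG8 and SNHG19. Entry and GENCODE starts also differed among the genes without TATAA. For GAS5, in which neither motif was found, the entry started at chr1:173869045, upstream of the GENCODE start at chr1:173868882. Both motifs were looked for after the sequences had been seen, and a match is a description of the letters, not of a working element. The 60 bases from 40 before the start are shown for these 6 genes and, for contrast, for SNHG1 and SNHG3, which had neither motif. Capitals mark TATAA and the pyrimidine run.
SNHG8 (chr4:118278722-118278781, plus strand): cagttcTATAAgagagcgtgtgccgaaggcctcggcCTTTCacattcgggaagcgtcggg
SNHG19 (chr16:2155339-2155398, minus strand): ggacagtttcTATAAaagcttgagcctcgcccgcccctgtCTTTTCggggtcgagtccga
ZFAS1 (chr20:49278602-49278661, plus strand): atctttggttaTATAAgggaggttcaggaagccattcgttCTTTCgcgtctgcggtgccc
SNHG5 (chr6:85678714-85678773, minus strand): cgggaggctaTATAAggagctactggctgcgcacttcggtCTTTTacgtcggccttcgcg
SNHG12 (chr1:28581854-28581913, minus strand): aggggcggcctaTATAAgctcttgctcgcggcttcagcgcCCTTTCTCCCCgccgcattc
SNHG7 (chr9:136728165-136728224, minus strand): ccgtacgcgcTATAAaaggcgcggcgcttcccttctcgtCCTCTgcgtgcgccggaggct
SNHG1 (chr11:62855866-62855925, minus strand): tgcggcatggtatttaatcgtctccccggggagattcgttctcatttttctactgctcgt
SNHG3 (chr1:28505903-28505962, plus strand): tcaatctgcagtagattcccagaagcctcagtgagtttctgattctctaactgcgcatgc

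To ask how the inhibitors affected the host genes, each treatment was compared with DMSO by edgeR's quasi-likelihood test across all genes, and a gene was called at a Benjamini-Hochberg adjusted p under 0.05. With Fucotrim II, 17 of the 21 host genes rose and none fell, where 25.6% of 14617 tested genes rose and 25.7% fell. With Fucotrim I, 15 of the 21 rose and none fell, where 21.6% of 14188 tested genes rose and 22.1% fell. SGN-2FF raised 7 of the 21 and lowered none, against 11.5% of 14312 tested genes raised and 9.08% lowered. P-SiaFNEtoc raised 3 of the 21, against 9.02% of 14259 tested genes, and lowered 1, against 7.33%. The median log2 fold change of the 21 genes was 0.70 with Fucotrim II, 0.35 with Fucotrim I, 0.15 with SGN-2FF and 0.05 with P-SiaFNEtoc, while the median over all tested genes was 0.01, 0.00, 0.00 and 0.00 in the same order. Every library lay above every DMSO library for 19 of the 21 host genes with Fucotrim II (33.8% of all tested genes), 16 with Fucotrim I (25.2%), 11 with SGN-2FF (16.9%) and 5 with P-SiaFNEtoc (16.6%), and every library lay below for 1 with P-SiaFNEtoc (17.2%). SNHG8 and SNHG3 rose with all 4 inhibitors, and SNHG10, SNHG29 and SNHG6 rose with the 3 fucosylation inhibitors. SNHG1, SNHG16 and SNHG20 were called with none in these fits. SNHG1 was called higher with SGN-2FF under limma-voom, without a filter on low counts, without DMSO replicate 2 or with a replicate block by title number. SNHG16 was called higher with SGN-2FF without DMSO replicate 2. In a fit of all 14 libraries, SNHG16 and SNHG20 were called higher with Fucotrim II. The SGN-2FF count depended on single libraries, since 4 genes were called without SGN-2FF replicate 1 and 3 without SGN-2FF replicate 2.

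**Figure D1:**
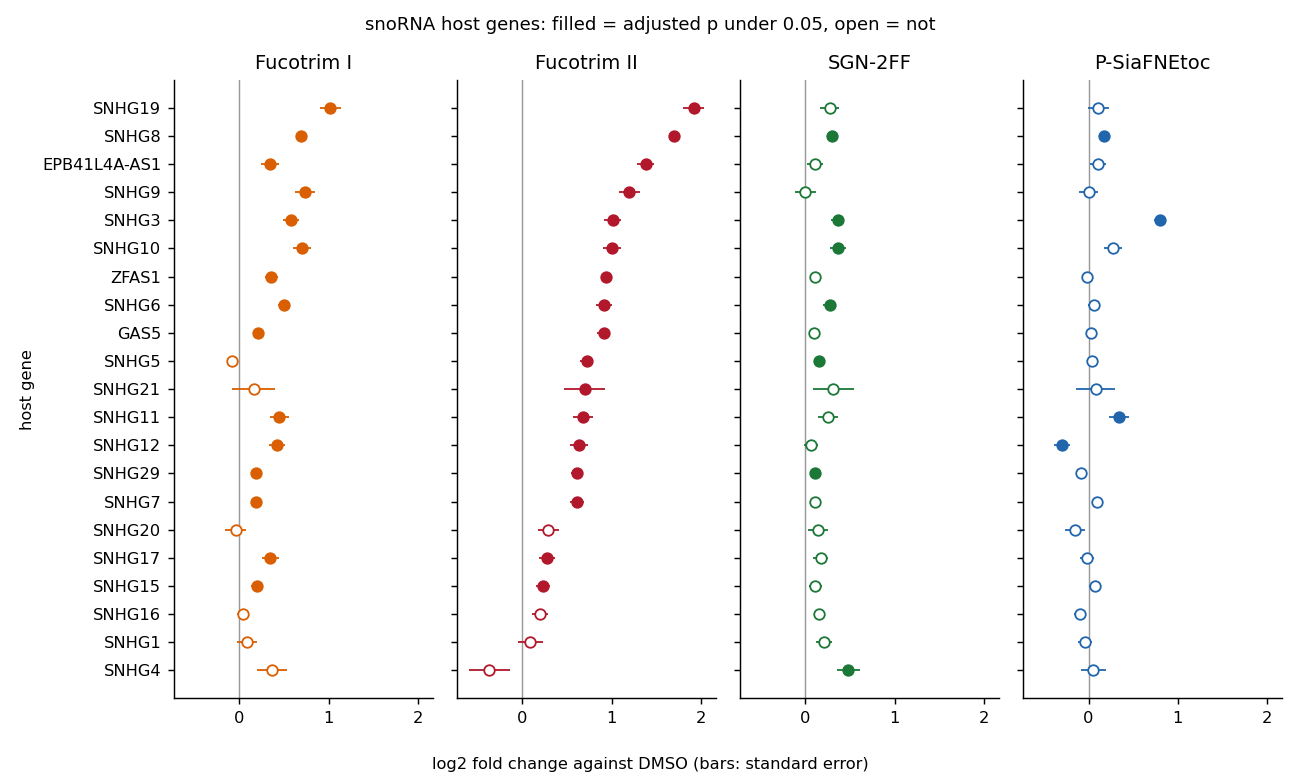
Log2 fold change against DMSO (x axis, with standard error) of each of the 21 snoRNA host genes (y axis, in the order of the Fucotrim II values) with each inhibitor. Filled points passed an adjusted p of 0.05 and open points did not; 17 genes were filled on the right of 0 with Fucotrim II, 15 with Fucotrim I, 7 with SGN-2FF and 3 with P-SiaFNEtoc.

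The largest rises were those of SNHG19, SNHG8 and EPB41L4A-AS1. SNHG19 (chr16:2154792-2155405), the host of SNORD60, was at 6.98, 8.23 and 8.02 CPM in DMSO and at 26.2 and 32.6 CPM with Fucotrim II. It was at 17.6, 15.8 and 13.2 CPM with Fucotrim I. Every library of both Fucotrims lay above every DMSO library, and the log2 fold change was 1.92 ± 0.12 (SE; edgeR adjusted p = 9.31e-06) with Fucotrim II and 1.02 ± 0.12 (edgeR adjusted p = 1.2e-06) with Fucotrim I. With SGN-2FF it was at 9.09 to 9.39 CPM and with P-SiaFNEtoc at 7.69 to 9.09 CPM, and neither difference passed the test.

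SNHG8 (chr4:118278703-118285316), the host of SNORA24, varied little within each group. It was at 72.8, 71.5 and 72.7 CPM in DMSO, at 234.6 and 237.5 CPM with Fucotrim II, and at 118.2, 114.2 and 117.5 CPM with Fucotrim I. With SGN-2FF it was at 88.2, 89.1 and 88.4 CPM, and with P-SiaFNEtoc at 80.6, 79.8 and 83.6 CPM. The 5 groups did not overlap and ran in the order DMSO, P-SiaFNEtoc, SGN-2FF, Fucotrim I and Fucotrim II. The fold changes were 3.25, 1.62, 1.23 and 1.13 for Fucotrim II, Fucotrim I, SGN-2FF and P-SiaFNEtoc, with edgeR adjusted p of 1.72e-06, 3.4e-09, 2.37e-05 and 0.00964.

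EPB41L4A-AS1 (chr5:112160526-112164818), the host of SNORA13 that lies antisense to EPB41L4A, was at 17, 13.6 and 16.9 CPM in DMSO and at 40.3 and 42.2 CPM with Fucotrim II. It was at 21.4, 20.8 and 17.4 CPM with Fucotrim I, at 15.3 to 17.9 CPM with SGN-2FF and at 15.8 to 17.7 CPM with P-SiaFNEtoc. The Fucotrim II libraries stood apart from all others (log2 fold change 1.38 ± 0.10, edgeR adjusted p = 1.73e-05), and the Fucotrim I libraries lay just above DMSO (0.34 ± 0.10, edgeR adjusted p = 0.0124), a call lost without DMSO replicate 2. SNHG9, the host of SNORA78, was at 7.20, 7.78 and 7.52 CPM in DMSO, at 12.2, 12.8 and 12.4 CPM with Fucotrim I and at 15.6 and 19.1 CPM with Fucotrim II. Its libraries with SGN-2FF (6.54 to 8.18 CPM) and P-SiaFNEtoc (6.87 to 7.75 CPM) overlapped those of DMSO. SNHG10, the host of SCARNA13, was at 10.3, 10.7 and 10.2 CPM in DMSO, at 16.6, 17.6 and 16.5 CPM with Fucotrim I, at 19.6 and 22.1 CPM with Fucotrim II and at 13.5, 13.0 and 13.4 CPM with SGN-2FF. It rose with these 3 inhibitors (log2 fold changes 0.70, 1.00 and 0.36), whereas with P-SiaFNEtoc all 3 libraries (13.1, 11.1 and 13.2 CPM) were above DMSO but the test was not passed (edgeR adjusted p = 0.0596).

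**Figure D2:**
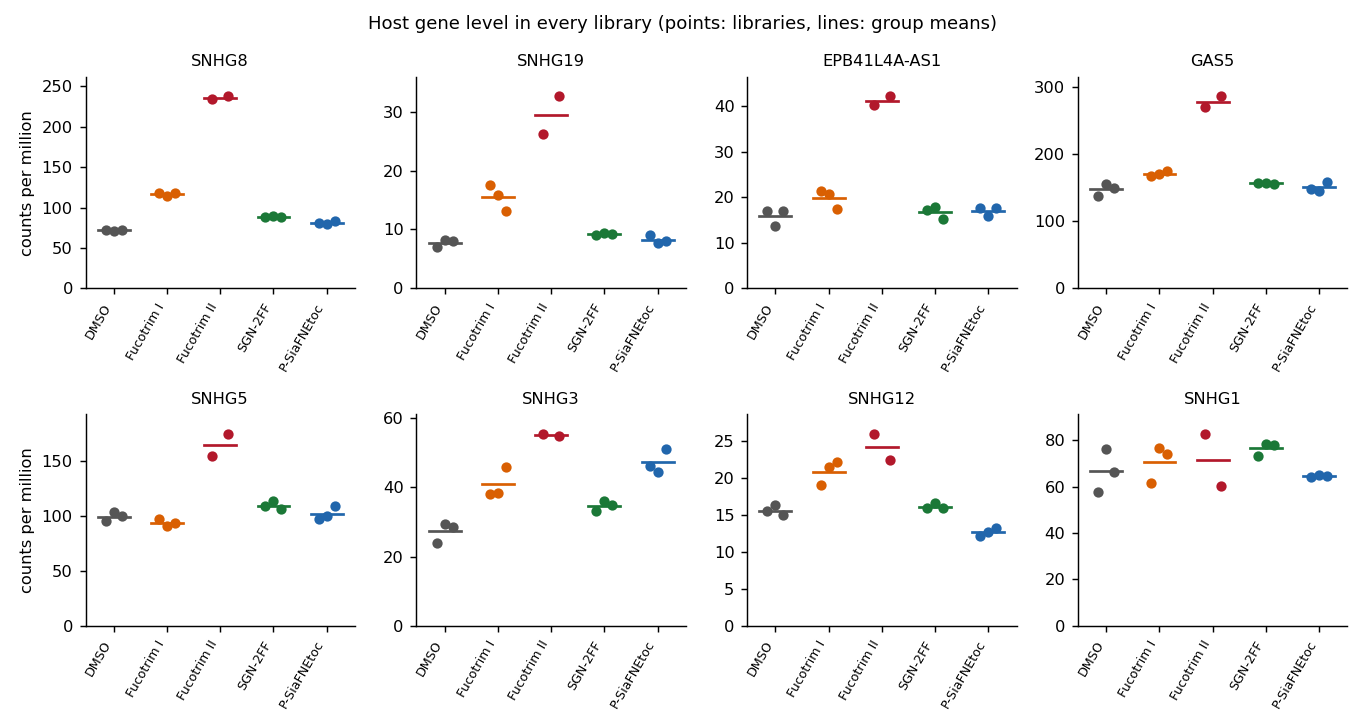
Level in CPM (y axis, from 0) of 8 host genes in every library (points) by treatment (x axis), with the group mean as a line. SNHG8, SNHG19 and EPB41L4A-AS1 were highest with Fucotrim II, SNHG3 was raised with all 4 inhibitors, SNHG12 was lowest with P-SiaFNEtoc, and each SNHG1 group overlapped DMSO.

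GAS5, ZFAS1 and SNHG6 had rises of similar size with Fucotrim II and smaller ones with Fucotrim I. GAS5 (chr1:173858559-173868882) was at 138.2, 155.1 and 150.1 CPM in DMSO, at 270.5 and 286.1 CPM with Fucotrim II and at 167.7, 169.7 and 175.1 CPM with Fucotrim I. The log2 fold change was 0.91 ± 0.07 (edgeR adjusted p = 1.66e-05) and 0.21 ± 0.05 (edgeR adjusted p = 0.00299), and both sets of libraries were above those of DMSO. With SGN-2FF it was at 156.1 to 157.6 CPM, above DMSO without passing the test, and with P-SiaFNEtoc it was at 145.2 to 158.9 CPM and overlapped DMSO. ZFAS1 (chr20:49278178-49299600), the host of the SNORD12 family, was at 45.8, 47.9 and 45.5 CPM in DMSO, at 88.4 and 89.9 CPM with Fucotrim II and at 63.8, 53.9 and 61.0 CPM with Fucotrim I. Both Fucotrims raised it (0.94 ± 0.06 and 0.36 ± 0.07 on the log2 scale), and its libraries with SGN-2FF (45.3 to 52.9 CPM) and P-SiaFNEtoc (44.8 to 46.2 CPM) overlapped DMSO. SNHG6, the host of SNORD87, was at 42.6, 38.6 and 47.5 CPM in DMSO, at 78.6 and 83.3 CPM with Fucotrim II, at 64.6, 59.1 and 57.0 CPM with Fucotrim I and at 53.4, 53.5 and 46.7 CPM with SGN-2FF. It rose with all 3 (0.91, 0.50 and 0.27), although 1 SGN-2FF library lay within the DMSO range and the SGN-2FF call was lost without SGN-2FF replicate 1 or 2, and it was not called with P-SiaFNEtoc (40.9 to 46.8 CPM).

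SNHG5 (chr6:85650491-85678932), the host of SNORD50A and SNORD50B, rose with Fucotrim II without a rise with Fucotrim I. It was at 95, 103.4 and 99.9 CPM in DMSO, at 154.4 and 174.9 CPM with Fucotrim II and at 97.1, 91.0 and 93.8 CPM with Fucotrim I. The Fucotrim II libraries were above all others (0.72 ± 0.07, edgeR adjusted p = 6.3e-05), and the Fucotrim I libraries overlapped DMSO (-0.08 ± 0.06, edgeR adjusted p = 0.264). SGN-2FF raised it by 0.15 ± 0.05 (108.8, 113.2 and 106.2 CPM, edgeR adjusted p = 0.0215), and with P-SiaFNEtoc it was at 97.6 to 109.1 CPM and not called. SNHG21, the host of SCARNA15, was called with Fucotrim II and no other inhibitor (0.70 ± 0.23, edgeR adjusted p = 0.0306). It was at 1.59 to 1.67 CPM in DMSO and at 3.07 and 2.26 CPM with Fucotrim II, on 51 counts or fewer per library, and the call was lost without any 1 of the DMSO libraries or without Fucotrim II replicate 1. The SGN-2FF call of SNHG5 was lost without DMSO replicate 1 or 3 or SGN-2FF replicate 1 or 2.

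With P-SiaFNEtoc 4 host genes were called, a share near that of all genes (14.3% higher against 9.02%, and 4.76% lower against 7.33%). SNHG3 (chr1:28505980-28510892), the host of SNORA73A and SNORA73B, was at 24, 29.3 and 28.6 CPM in DMSO and at 46.3, 44.5 and 51.2 CPM with P-SiaFNEtoc. It was at 38.2, 38.5 and 45.8 CPM with Fucotrim I, at 55.5 and 54.8 CPM with Fucotrim II and at 33.1, 36.0 and 35.0 CPM with SGN-2FF. All libraries of all 4 inhibitors were above DMSO, and the log2 fold change with P-SiaFNEtoc (0.80 ± 0.07, edgeR adjusted p = 1.73e-09) lay between those with Fucotrim II (1.01 ± 0.09) and Fucotrim I (0.58 ± 0.09). SNHG12 (chr1:28578538-28583132), the host of SNORA44, SNORA61, SNORA16A and SNORD99, was at 15.5, 16.3 and 15 CPM in DMSO, at 12.1, 12.7 and 13.2 CPM with P-SiaFNEtoc, at 19.0, 21.5 and 22.1 CPM with Fucotrim I and at 26.0 and 22.5 CPM with Fucotrim II. In the main fits SNHG12 was the only host gene called lower with any inhibitor (-0.30 ± 0.09 with P-SiaFNEtoc, edgeR adjusted p = 0.0167). It rose with both Fucotrims (0.42 ± 0.09 and 0.63 ± 0.10), and the SGN-2FF libraries (15.9 to 16.6 CPM) overlapped DMSO. The lower call was lost when DMSO replicate 2 or P-SiaFNEtoc replicate 1 was left out. SNHG11, the host of SNORA60 and SNORA71E, was at 8.30, 7.95 and 8.52 CPM in DMSO and at 10.1, 11.7 and 9.51 CPM with P-SiaFNEtoc (0.34 ± 0.11, edgeR adjusted p = 0.0293). This call was lost without any 1 of the DMSO libraries or without P-SiaFNEtoc replicate 2. The Fucotrim I libraries (11.3, 11.2 and 11.4 CPM) and Fucotrim II libraries (13.7 and 12.9 CPM) were also above DMSO and called, and the SGN-2FF libraries (9.27 CPM or more) were above DMSO without passing the test. SNHG8, with the smallest rise of the 3 raised genes, is described above.

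Other host genes ranged from SNHG1, which was called with no inhibitor, to SNHG29 and SNHG7, which each rose by 0.61 on the log2 scale with Fucotrim II. SNHG1 (chr11:62851978-62855953), the host of the cluster from SNORD25 to SNORD31, was at 57.6, 76.3 and 66.5 CPM in DMSO, at 61.5, 76.9 and 74.0 CPM with Fucotrim I and at 82.9 and 60.2 CPM with Fucotrim II. It was at 73.1, 78.6 and 78.2 CPM with SGN-2FF and at 64.3, 65.1 and 64.6 CPM with P-SiaFNEtoc. The DMSO libraries spanned most of these values, and the log2 fold changes of 0.09 ± 0.11, 0.09 ± 0.14, 0.21 ± 0.09 and -0.04 ± 0.08 in the order Fucotrim I, Fucotrim II, SGN-2FF and P-SiaFNEtoc did not pass the test. SNHG15, the host of SNORA9, was at 32.5, 34.9 and 36.7 CPM in DMSO, at 40.5, 38.2 and 40.3 CPM with Fucotrim I and at 41.3 and 40.1 CPM with Fucotrim II, with log2 fold changes of 0.20 ± 0.07 and 0.23 ± 0.08. Both calls were lost when DMSO replicate 1 or 2 was left out, the first also without Fucotrim I replicate 1 or 3 and the second without DMSO replicate 3. It was at 34.6 to 39.0 CPM with SGN-2FF and at 35.3 to 37.9 CPM with P-SiaFNEtoc. SNHG4, the host of SNORA74A and SNORA74D, was at 5.06, 5.39 and 5.89 CPM in DMSO and at 6.67, 7.90 and 7.90 CPM with SGN-2FF. SGN-2FF gave its only call in the main fits (0.48 ± 0.13, edgeR adjusted p = 0.00941). This SNHG4 call was lost without SGN-2FF replicate 2, with the DESeq2 test and in the fit of all 14 libraries. Its libraries with Fucotrim I (5.02, 8.78 and 7.12 CPM), Fucotrim II (5.47 and 3.00 CPM) and P-SiaFNEtoc (5.23 to 6.50 CPM) overlapped DMSO. SNHG4 was called higher with Fucotrim I when Fucotrim I replicate 1 was left out, or with a replicate block by title number. Without Fucotrim II replicate 1 its log2 fold change with Fucotrim II was -0.86. SNHG29, with 480.9 to 493.4 CPM in DMSO, rose to 519.6 to 590.4 CPM with Fucotrim I, to 701.4 and 795.0 CPM with Fucotrim II and to 504.2 to 537.7 CPM with SGN-2FF, a call lost without any 1 of the DMSO libraries or without SGN-2FF replicate 1 or 2. It hosts SNORD49A, SNORD49B and SNORD65. SNHG7 and SNHG17 rose with both Fucotrims (0.19 and 0.61, and 0.35 and 0.28, with Fucotrim I named first). The Fucotrim I call of SNHG7 was lost without DMSO replicate 2 or Fucotrim I replicate 1 or 3, and the Fucotrim II call of SNHG17 without DMSO replicate 1 or 3 or Fucotrim II replicate 2. SNHG16 had log2 fold changes between -0.10 and 0.20 and SNHG20 between -0.15 and 0.29, without a call.

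Fucotrim I and Fucotrim II were given at different doses, 30 µM and 60 µM, so the values are set side by side as treated and the dose and the compound cannot be told apart. Of the 21 host genes, 18 had a larger log2 fold change with Fucotrim II. In a direct edgeR fit of the 3 Fucotrim I against the 2 Fucotrim II libraries, 11 of the 21 were lower with Fucotrim I and none was higher, where 9.5% of 14378 tested genes were called, 6.04% as lower and 3.46% as higher. Every Fucotrim I library lay below both Fucotrim II libraries for 16 of the 21, against 21.2% of all genes. The median log2 difference was -0.43, and the largest were those of EPB41L4A-AS1 (-1.05 ± 0.11), SNHG8 (-1.02 ± 0.08) and SNHG19 (-0.92 ± 0.14). GAS5 (-0.70 ± 0.08), SNHG5 (-0.81 ± 0.08) and ZFAS1 (-0.58 ± 0.09) also differed, while SNHG1, SNHG15, SNHG17, SNHG12 and SNHG11 were among the 10 that did not pass. The number called depended on single libraries and was 6 without Fucotrim I replicate 2 and 7 without Fucotrim I replicate 3.

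Counts on the 57 snoRNAs inside the host genes were then set beside those of their hosts. The libraries were made from polyadenylated RNA, which does not capture mature snoRNAs well, so these counts are of fragments that fell on the snoRNA genes and not of snoRNA amounts. Genes for 53 of the 57 were in the tables, and together they had between 482 and 814 counts per library. Of these, 21 had a mean of 10 or more counts, and 2 of 20 tested rose with Fucotrim I, 1 of 21 with Fucotrim II, 2 of 21 with SGN-2FF and 1 of 19 with P-SiaFNEtoc, with none lower. The shares of all genes that rose were 21.6%, 25.6%, 11.5% and 9.02% in the same order. The shares of these snoRNA genes were below them with both Fucotrims. With SGN-2FF and P-SiaFNEtoc, 2 of 21 and 1 of 19 were near the shares of all genes. The snoRNA genes inside GAS5 summed to 14, 17.1 and 18.6 CPM in DMSO and to 21.7 and 13.2 CPM with Fucotrim II, so the Fucotrim II libraries spanned the DMSO range although both GAS5 values were above it. SNORD44, shown above, had a log2 fold change of -0.32 ± 0.27 with Fucotrim II, and SNORD47, the most counted of the GAS5 set, one of 0.20 ± 0.29. Inside SNHG1, whose own level was not called, the snoRNA genes summed to 9.09 to 11.4 CPM in DMSO and to 12.2 and 7.69 CPM with Fucotrim II, and SNORD25 had a log2 fold change of -0.04 ± 0.28.

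SNORA24, inside SNHG8, was called with 3 inhibitors. It had 12, 11 and 8 counts in DMSO, 21, 16 and 18 with Fucotrim I, 33 and 34 with Fucotrim II, 11 in each SGN-2FF library and 25, 20 and 16 with P-SiaFNEtoc. The libraries of both Fucotrims and of P-SiaFNEtoc were above those of DMSO. The log2 fold change was 1.70 ± 0.28 with Fucotrim II (edgeR adjusted p = 0.000959), 1.18 ± 0.32 with Fucotrim I (edgeR adjusted p = 0.00554) and 0.96 ± 0.31 with P-SiaFNEtoc (edgeR adjusted p = 0.0342), beside 1.70, 0.69 and 0.17 for SNHG8 itself. The other calls were SNORD81 in GAS5 with Fucotrim I (0.73 ± 0.28), and SNORA73B in SNHG3 (1.19 ± 0.37) and SNORA44 in SNHG12 (1.04 ± 0.33) with SGN-2FF, on at most 55 counts in any library.

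**Figure D3:**
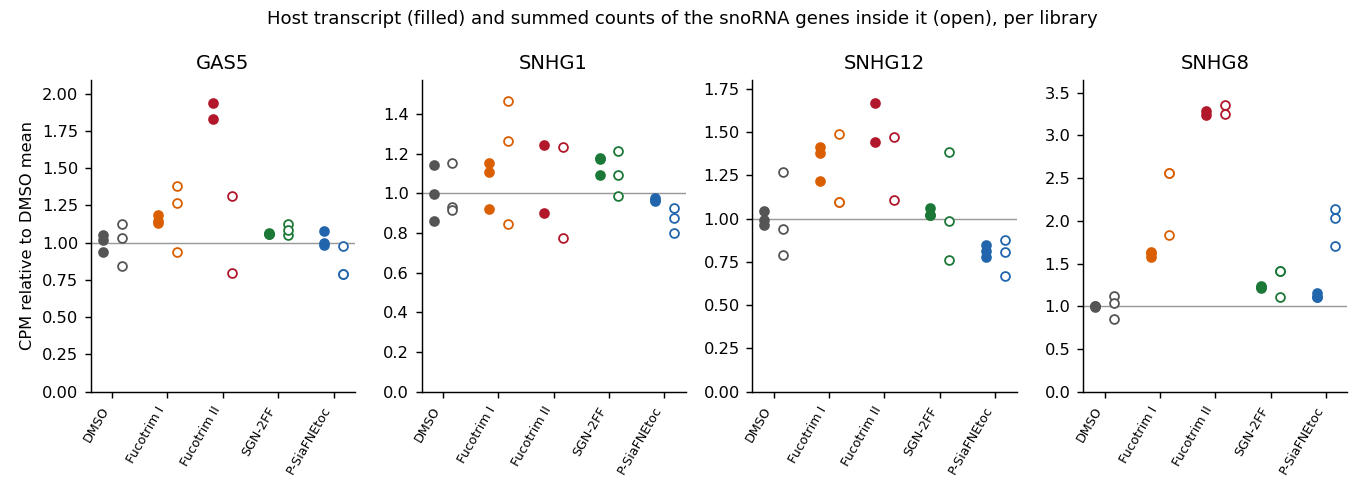
CPM relative to the DMSO mean (y axis, from 0) for 4 host transcripts (filled points) and for the summed snoRNA genes inside each (open points), 1 point per library, by treatment (x axis). The GAS5 transcript was raised with Fucotrim II while its snoRNA genes spanned the DMSO range, and SNHG8 and SNORA24 were both raised with the Fucotrims.

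The host genes were then split by the kind of snoRNA they carry. With Fucotrim II the median log2 fold change was 0.72 for the 7 genes with C/D box but no H/ACA box snoRNAs or scaRNAs (SNHG29, SNHG5, SNHG1, SNHG16, ZFAS1, SNHG6 and SNHG19), of which 5 rose, and 0.68 for the 9 with H/ACA box but no C/D box snoRNAs or scaRNAs, of which 8 rose. With Fucotrim I it was 0.19 and 0.37, with 4 and 8 genes raised, with SGN-2FF 0.15 and 0.17, with 3 raised in each, and with P-SiaFNEtoc -0.02 and 0.10, with 0 and 3 raised. The 6 genes with TATAA before the start all rose with Fucotrim II, with a median of 0.83 and a range of 0.61 to 1.92, and 8 of the 12 without it rose, with a median of 0.64 and a range of -0.37 to 1.38. With Fucotrim I the medians were 0.39 and 0.28, with 5 of 6 and 7 of 12 raised. With SGN-2FF the order turned, with medians of 0.13 and 0.19 and with 2 of 6 and 4 of 12 raised. With P-SiaFNEtoc the medians were 0.07 and 0.04, with 1 and 2 raised, and the 1 host gene that fell was in the TATAA set. No test was made between these small sets, and their ranges overlapped.

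Other parts of the same machinery were examined to see what moved beside the host genes. Ribosomal protein genes, whose mRNAs carry the TOP tract, rose in 64 of 77 tested with Fucotrim I (83.1%, against 21.6% of all genes), 74 of 77 with Fucotrim II (96.1%, against 25.6%) and 44 of 77 with SGN-2FF (57.1%, against 11.5%), with none lower there, and had medians of 0.28, 0.65 and 0.11. With P-SiaFNEtoc 1 rose and 3 fell (1.3% and 3.9%, against 9.02% and 7.33% of all genes), with a median of -0.01. In Fucotrim II, RPL28 rose by 1.09 ± 0.08 and RPL13A by 1.01 ± 0.08. The TOP mRNAs of translation factors rose in 9 of 15 with Fucotrim I (60%, against 21.6% of all genes) and 11 of 15 with Fucotrim II (73.3%, against 25.6%), EEF2 and RACK1 among them with 0.68 each in Fucotrim II, while NAP1L1 fell with both (-0.41 ± 0.05 and -0.37 ± 0.07) and HNRNPA1 with Fucotrim II (-0.19 ± 0.06). These were the only ones lower (6.67% and 13.3%, against 22.1% and 25.7% of all genes). With SGN-2FF 3 of 15 rose and 1 fell (20% and 6.67%, against 11.5% and 9.08%), and with P-SiaFNEtoc none rose and 2 fell (0% and 13.3%, against 9.02% and 7.33%). At 15 genes these SGN-2FF and P-SiaFNEtoc counts were within 2 genes of the shares of all genes.

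Protein-coding hosts were taken as genes with a GENCODE snoRNA on the same strand that touched no exon of any of their transcripts. Hosts such as RPL13A, whose snoRNAs touch such an exon, are therefore not among them. The non-coding host genes were instead chosen by symbol and checked by RefSeq snoRNAs, so the sets were not defined alike. Of 173 tested with Fucotrim I, 37 rose and 67 fell (21.4% and 38.7%, against 21.6% and 22.1% of all genes), with a median of -0.10. Of 175 tested with Fucotrim II, 32 rose and 80 fell (18.3% and 45.7%, against 25.6% and 25.7%), with a median of -0.19. The 13 of them on the TOP lists all rose with both Fucotrims, with medians of 0.23 and 0.65 and with RPL37 (0.90) and RPL12 (0.77) the largest of these 13 in Fucotrim II. The remaining hosts had medians of -0.14 and -0.23. Among these, TTC6 (1.39 and 1.17) and RAMP1, a calcitonin receptor partner (0.65 and 1.21), rose with both, while RC3H2, an RNA-decay ubiquitin ligase, fell with Fucotrim II (-0.93 ± 0.08). With SGN-2FF 21 of 174 rose and 27 fell (12.1% and 15.5%, against 11.5% and 9.08%), and with P-SiaFNEtoc 6 of 174 rose and 14 fell (3.45% and 8.05%, against 9.02% and 7.33%).

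Among long non-coding RNAs outside the host group, calls upward outnumbered calls downward, but the share that rose was above that of all genes with Fucotrim II alone. With Fucotrim II 210 of 715 tested rose (29.4%, against 25.6% of all genes) and 41 fell (5.73%, against 25.7%), with a median of 0.26. With Fucotrim I 124 of 650 rose (19.1%, against 21.6%) and 42 fell (6.46%, against 22.1%), with a median of 0.16. With SGN-2FF 63 of 656 rose (9.6%, against 11.5%) and 13 fell (1.98%, against 9.08%), and with P-SiaFNEtoc 22 of 665 rose (3.31%, against 9.02%) and 7 fell, where 7.33% of all genes fell. LINC01503 rose with both Fucotrims (1.29 and 1.75), and MIR924HG fell with both (-0.98 and -1.83).

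Genes for the proteins of snoRNPs, the complexes in which snoRNAs work, were called in both directions. Of 18 tested, 2 rose and 1 fell with Fucotrim I (11.1% and 5.56%, against 21.6% and 22.1% of all genes), and 2 rose and 8 fell with Fucotrim II (11.1% and 44.4%, against 25.6% and 25.7%). The risers were PIH1D1, an assembly cofactor (0.28 and 0.55), and NOP10, a core H/ACA protein (0.24 and 0.26), and ZNHIT6, an assembly factor for C/D box snoRNPs, fell with both (-0.24 and -0.37). With SGN-2FF 2 rose (11.1%, against 11.5% of all genes) and with P-SiaFNEtoc 1, NAF1, fell (5.56%, against 7.33%), so neither share was above that of all genes. Of 39 genes of rRNA synthesis and early ribosome assembly, 10 rose and 12 fell with Fucotrim I (25.6% and 30.8%, against 21.6% and 22.1% of all genes), and 5 rose and 20 fell with Fucotrim II (12.8% and 51.3%, against 25.6% and 25.7%), where DDX21, a nucleolar helicase, fell by 0.67 and TAF1A, a subunit of the RNA polymerase I selectivity factor, fell by 0.93. In the same list, TAF1C rose with both Fucotrims (0.48 ± 0.07 and 0.59 ± 0.08) and IMP3 with Fucotrim II (0.35 ± 0.08). With SGN-2FF 7 rose and 3 fell (17.9% and 7.69%, against 11.5% and 9.08%), and with P-SiaFNEtoc 4 rose and 4 fell (10.3% each, against 9.02% and 7.33%).

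NMD and exon junction factors were never raised by a fucosylation inhibitor. With Fucotrim I 7 of 15 fell (46.7%, against 22.1% of all genes), with Fucotrim II 9 of 15 (60%, against 25.7%) and with SGN-2FF 3 of 15 (20%, against 9.08%), CASC3 among them each time (-0.31, -0.44 and -0.17). With P-SiaFNEtoc 1 of 15 rose and 2, UPF3B and MAGOHB, fell (6.67% and 13.3%, against 9.02% and 7.33%), by 0.26 and 0.15. Also examined were 12 other genes with transcripts known as NMD substrates. They were counted per gene, so transcripts of a gene that are and are not such substrates cannot be told apart. With Fucotrim I 1 rose and 4 fell (8.33% and 33.3%), and with Fucotrim II 3 rose and 6 fell (25% and 50%). With SGN-2FF 1 rose and 3 fell (8.33% and 25%), and with P-SiaFNEtoc 2 rose and 4 fell (16.7% and 33.3%). The shares of all genes that rose and fell were 21.6% and 22.1%, 25.6% and 25.7%, 11.5% and 9.08%, and 9.02% and 7.33% in the same order. GADD45A rose with all 4 inhibitors (0.68, 0.77, 0.32 and 0.24 in the order Fucotrim I, Fucotrim II, SGN-2FF and P-SiaFNEtoc), and ATF4 fell with Fucotrim I (-0.81 ± 0.05).

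**Figure D4:**
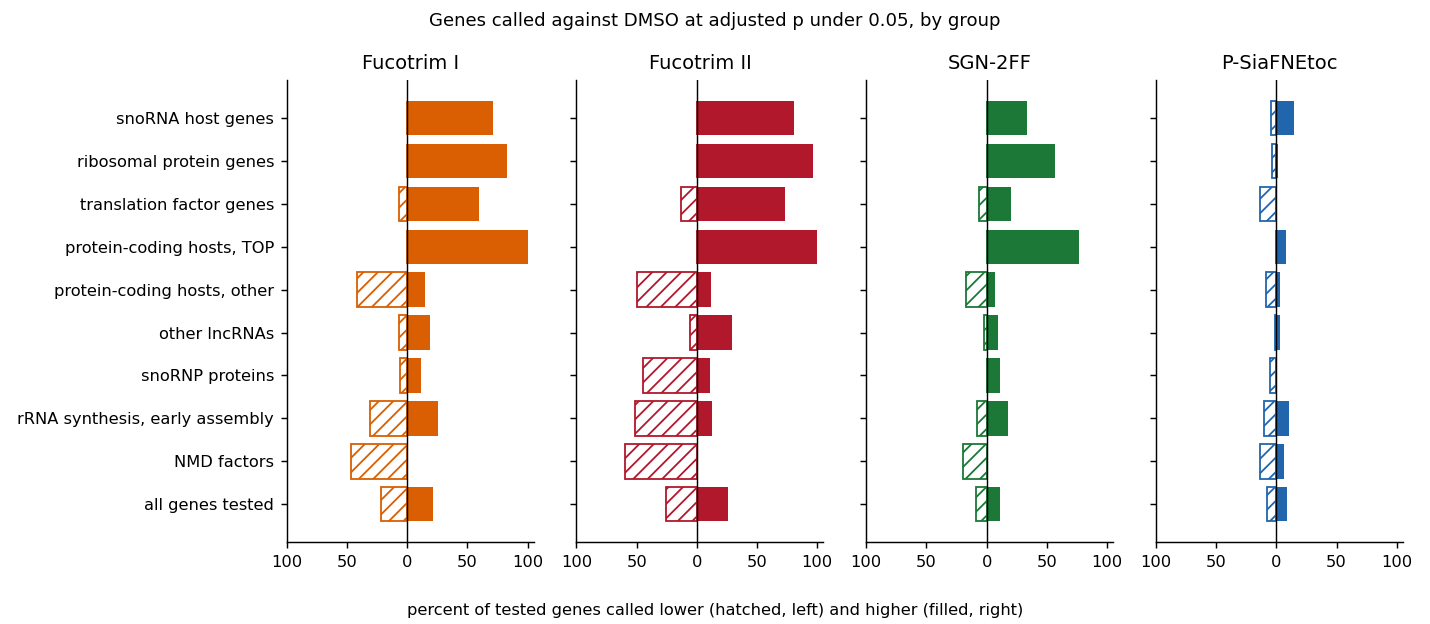
Percent of tested genes (x axis) called higher (filled bars to the right) and lower (hatched bars to the left) against DMSO at an adjusted p of 0.05 for the host genes and for other gene groups (y axis), by inhibitor; TOP marks protein-coding snoRNA hosts that are on the lists of ribosomal protein and translation factor genes. With Fucotrim II 81.0% of the host genes and 96.1% of the ribosomal protein genes were higher, against 25.6% of all genes.

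Transcript length, mitochondrial RNA and overlapping genes moved with or touched these results, and the part of each was not tested. Protein-coding genes outside the TOP lists were split into 4 groups of like size by the length of their canonical GENCODE transcript. With Fucotrim II the median log2 fold change was 0.18 in the shortest group (2089 bases or fewer), 0.04 and -0.09 in the next, and -0.21 in the longest. With Fucotrim I it ran from 0.11 to -0.11, with SGN-2FF from 0.06 to -0.06 and with P-SiaFNEtoc from 0.05 to -0.05. Of the host genes, 13 were in the shortest group, and their median with Fucotrim II was 0.68, with 10 of the 13 raised, where 37.5% of the protein-coding genes of that group were raised. The 5 host genes in the second group had a median of 0.61, and SNHG8, with 1.70, was in the longest. These placements use the GENCODE canonical transcript, which has 6166 bases for SNHG8, 3511 for EPB41L4A-AS1 and 3043 for SNHG10. The RefSeq genes are shorter, at chr4:118278762-118279823, chr5:112160526-112162501 and chr14:95532912-95534872, so these 3 genes would be placed among shorter transcripts by RefSeq. The mitochondrial mRNAs took 5.32% to 6.27% of the counts in DMSO, 7.85%, 10.7% and 12.8% with Fucotrim I, 15.1% and 10.8% with Fucotrim II, 7.26% to 7.70% with SGN-2FF and 5.40% to 6.07% with P-SiaFNEtoc. With the mitochondrially encoded genes left out before scaling, or the ribosomal protein genes left out, the number of host genes called was the same with every inhibitor. Without the mitochondrial genes, the number of all genes called also moved little, from 6209 to 6193 with Fucotrim I and from 7511 to 7448 with Fucotrim II. This setting therefore cannot show the part of mitochondrial RNA.

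**Figure D5:**
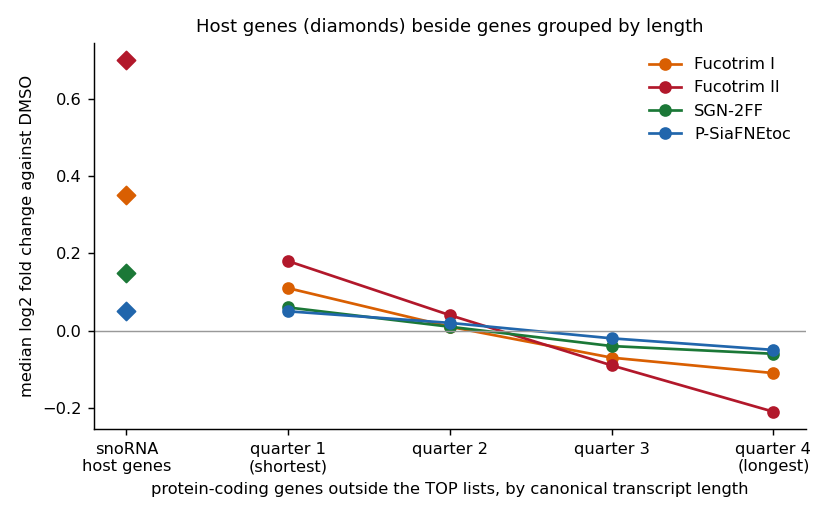
Median log2 fold change against DMSO (y axis) of the 21 host genes (diamonds) and of protein-coding genes outside the TOP lists in 4 groups of canonical transcript length (circles, x axis), by inhibitor. The shortest group stood at 0.18 with Fucotrim II beside 0.70 for the host genes.

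The library kit was stranded, but whether strand was used in the counting is not given in the sources used here, so reads of host genes and of genes that overlap their exons on the other strand cannot be told apart. The exons of the GENCODE canonical transcript were shared on the opposite strand for 40.3% of SNHG8 (with PRSS12), 62.7% of EPB41L4A-AS1 (EPB41L4A), 46.4% of SNHG7 (DIPK1B) and 81.7% of SNHG6 (MCMDC2). The shared stretches had 2487 bases for SNHG8 and 2200 for EPB41L4A-AS1, longer than their RefSeq genes given above. Part of each stretch therefore lies outside the RefSeq gene, and the percentages do not hold for counting on RefSeq genes. PRSS12 had 36 to 55 counts in DMSO and 31 to 36 with Fucotrim II, and EPB41L4A had 220 to 282 and 255 to 289, neither of which was called. MCMDC2 had 69 to 77 counts in DMSO and 78 to 84 with Fucotrim II and was called with SGN-2FF alone (0.46 ± 0.15, beside 0.27 for SNHG6). DIPK1B rose with the 3 fucosylation inhibitors (0.34, 0.62 and 0.24), beside 0.19, 0.61 and 0.11 for SNHG7. SNHG5 shared 60.7% of its exon bases with an unnamed gene on the same strand, and SNHG20 shared 42.2% with SEC14L1. On the same strand, SNHG3 shared 11% of its exon bases with RCC1, a nuclear exchange factor for Ran, and SNHG4 shared 12.3% with MATR3, a nuclear matrix protein gene. RCC1 fell with both Fucotrims (-0.31 ± 0.05 and -0.46 ± 0.06) where SNHG3 rose, and MATR3 fell with both (-0.29 ± 0.05 and -0.52 ± 0.07).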

How the data were processed

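Per the labels and the study's methods, RNA was extracted from CWR22RV1 cells, libraries were made with the TruSeq Stranded mRNA kit, and the authors mapped reads to hg38 with HISAT2 and counted them per gene with featureCounts; FastQC and limma are also named in the submitters' processing notes. The deposited tables hold raw read counts in 4 tables that each pair an inhibitor with DMSO. DMSO counts were identical in the 4 tables, and SGN-2FF genes were matched by Entrez identifier. No column of per-library values was left unassigned.

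Genes were filtered with filterByExpr (minimum count 10) and tested per comparison with edgeR 4.0.16 (TMM, glmQLFit and glmQLFTest) in R 4.3.3, adjusted over all tested genes by the Benjamini-Hochberg method. Standard errors are the log2 fold change divided by the root of F. Levels are CPM with TMM scaling over 14 libraries. The script was tested on simulated data. Alternatives used DESeq2 1.42.0, limma-voom (limma 3.58.1), other filters, a replicate block and left-out libraries or genes. GENCODE release 44 and RefSeq gave lengths, overlaps, snoRNAs and sequences.

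The host genes and the other gene lists were chosen with earlier results of these data known. Every host gene is named. Library values are given for GAS5, ZFAS1, SNHG1, SNHG5, SNHG6, SNHG8, SNHG12, SNHG15, CYTOR, EPB41L4A-AS1 and, per inhibitor, the 3 called host genes with the largest change each way and a mean of 50 or more counts. From other lists, up to 2 called genes each way were named by the same limit, and snoRNA genes at a mean of 10 or more counts. Libraries are labelled as biological replicates without further detail, so p-values measure the spread between these libraries. Whether libraries with the same replicate number were paired is not given, and the main fits had no block. Depth, 12553094 to 19981453 counts per library, limits precision most for SNHG21 and the snoRNA genes. A few genes are not reported here.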

Additional observations from a re-analysis of the deposited data

Results flagged for a closer look

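In the direct fit of Fucotrim I against Fucotrim II, 11 host genes differed (edgeR's quasi-likelihood test, Benjamini-Hochberg adjusted p under 0.05). All were lower with Fucotrim I, by log2 differences of -1.05 for EPB41L4A-AS1, -1.02 for SNHG8, -0.92 for SNHG19, -0.81 for SNHG5, -0.70 for GAS5, -0.58 for ZFAS1, -0.47 for SNHG9, -0.44 for SNHG3 and -0.43 each for SNHG29, SNHG7 and SNHG6. The compounds were given at 30 µM and 60 µM, so compound and dose cannot be told apart. The calls of SNHG29, SNHG7 and SNHG6 were lost without Fucotrim I replicate 2 or 3, that of SNHG3 without Fucotrim I replicate 1 or 2, and that of SNHG9 without any 1 of the Fucotrim I libraries or without Fucotrim II replicate 2.

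SNHG12 moved in opposite directions: every Fucotrim I and Fucotrim II library was above every DMSO library (log2 fold changes 0.42 and 0.63) and every P-SiaFNEtoc library was below (-0.30). The difference between the inhibitors was not tested, and the comparisons share the DMSO libraries. No group held 4 or more libraries, so no single library was examined as an outlier.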

How the results depend on the processing

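Of 1680 values of single host genes under alternatives, 1553 kept their direction and side of the threshold, 82 lost a call, 24 gained one and 21 changed sign. Leaving out mitochondrial or ribosomal protein genes, DESeq2 size factors and a minimum of 10 counts in every library changed no host gene call. The DESeq2 test ended 9 host gene calls and an adjusted p under 0.01 ended 13. Those lost with DESeq2 included SNHG15 with both Fucotrims, SNHG17 and SNHG21 with Fucotrim II, and SNHG4 and SNHG5 with SGN-2FF. Also lost with DESeq2 were SNHG11 and SNHG12 with P-SiaFNEtoc and SNHG9 between the Fucotrims. With SGN-2FF the genes called numbered 1609 at an adjusted p under 0.01, 1942 with DESeq2 and 1695 in a fit of all 14 libraries, which called 4 host genes higher. With P-SiaFNEtoc they numbered 1171, 1482 and 998 in the same order, and the first 2 settings called 0 host genes lower. For Fucotrim I against Fucotrim II, 447 genes were called at an adjusted p under 0.01 and 3597 in the fit of all 14 libraries, with 1 host gene higher. The causes were not tested.

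Correlations of same-numbered deviations ran from -0.285 to 0.151 by title and from -0.068 to 0.247 by the numbers in the library names. These do not settle whether the libraries were paired, and the main fits had no block. The block by title moved the genes called from 6209 to 7288 with Fucotrim I and from 2331 to 2674 with P-SiaFNEtoc. They went from 7511 to 5300 with Fucotrim II and from 2946 to 2868 with SGN-2FF. By the numbers in the library names, 7779 genes were called with Fucotrim II. With the replicate block by title number, 358 genes and 6 lower host genes were called between the Fucotrims; with the numbers in the library names, 2810 genes and 1 higher host gene, and SNHG1 changed sign to -0.01 with Fucotrim II and 0.09 between the Fucotrims. Against DMSO the block by title called 16, 14, 8 and 3 host genes higher with Fucotrim I, Fucotrim II, SGN-2FF and P-SiaFNEtoc.

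Leaving out each library in turn, genes called ranged from 1642 to 3109 with SGN-2FF, from 1516 to 2115 with P-SiaFNEtoc and from 336 to 2916 between the Fucotrims. Host genes called higher ranged from 3 to 9 with SGN-2FF and from 0 to 1 between the Fucotrims, and host genes called lower from 0 to 1 with Fucotrim II, from 0 to 2 with P-SiaFNEtoc and from 6 to 13 between the Fucotrims. Median log2 fold changes ranged from 0.68 to 0.73, 0.14 to 0.18, 0.01 to 0.07 and -0.46 to -0.36 with Fucotrim II, SGN-2FF, P-SiaFNEtoc and between the Fucotrims. Single genes that changed sign, none of them called, ranged as follows. SNHG1 ran from -0.01 to 0.19 with Fucotrim I, -0.16 to 0.30 with Fucotrim II, -0.14 to 0.07 with P-SiaFNEtoc and -0.23 to 0.23 between the Fucotrims, SNHG16 from -0.02 to 0.08 with Fucotrim I and SNHG9 from -0.07 to 0.10 with SGN-2FF. With P-SiaFNEtoc, GAS5 ran from -0.02 to 0.07, SNHG17 from -0.05 to 0.01, SNHG4 from -0.05 to 0.11, SNHG5 from -0.01 to 0.07, SNHG6 from -0.01 to 0.14, SNHG9 from -0.04 to 0.05 and ZFAS1 from -0.03 to 0.01.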

Other observations

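LINC00888, which now has the symbol of an SNHG gene but stands in the tables under its older name, had 22 to 24 counts in DMSO and 25 and 46 with Fucotrim II. It was not called with any inhibitor (log2 fold change 0.62 ± 0.32 with Fucotrim II, edgeR adjusted p = 0.132). SNHG28 had 10, 6 and 7 counts in DMSO and 13 and 15 with Fucotrim II. Among all snoRNA genes in the tables, inside any host, SNORD104 rose with the 3 fucosylation inhibitors (0.84 ± 0.15, 1.13 ± 0.13 and 0.49 ± 0.14 in the order Fucotrim I, Fucotrim II, SGN-2FF), and SNORD88B with Fucotrim I (0.51 ± 0.14) and SGN-2FF (0.50 ± 0.13).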
